A study of Mus musculus with 4 samples.

Results

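Osteoclasts are the large multinucleate cells that remove bone and the mineralised tissue of tooth roots, and 10 genes that serve their fusion and their resorbing work were followed here in the periodontal ligament (PDL in the labels) of mice. The genes were chosen by name, but with earlier results of these data known. Shares over all genes beside their counts are therefore description only. The 10 are Dcstamp and Ocstamp for fusion, Acp5, Ctsk, Mmp9, Atp6v0d2 and Slc9b2 for resorption, Calcr and Oscar as receptors, and the regulator Nfatc1. All 10 were found among the 22911 genes that the array probes could be named for, with 17 probes in all. The brightest probe of each gene over the arrays was used, and each of these 10 probes was called well above background by the scanner software on all 4 arrays.

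The tissue came from wild type mice (WT) and from Mkx knockout mice (Mkx-KO), at 10 and at 4 weeks of age. Mkx encodes the tendon and ligament transcription factor Mohawk. Each of the 4 groups was measured on 1 Agilent array, and all 4 arrays lay on 1 slide. The labels give no strain or sex, nor how many mice a preparation pooled, nor how Mkx was removed. With 1 array a group there is no spread between mice, so differences are given without a p-value, beside the technical error that the scanner software estimates and beside the spread over all measured genes. A level is the log2 signal of a probe minus the 75th percentile of its array, differences are log2 differences between such levels, and 1 log2 unit is 2-fold.

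Osteoclasts form from precursors of the monocyte lineage when stromal cells and bone cells offer the cytokines CSF1 and RANKL. RANKL signalling switches on the transcription factor NFATc1, which with AP-1, PU.1 and MITF turns on the genes of fusion, acid secretion and collagen breakdown. In the jaw these cells line the socket wall that faces the ligament, where they take part in tooth eruption and movement. In such a bulk tissue, fewer osteoclasts and less RNA of these genes per osteoclast cannot be told apart.

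RefSeq promoter windows of build GRCm38.p6, from 250 bases before to 50 bases after a start site, were at hand for 5 of the 10 genes and gave 8 windows. They were searched on both strands for GGAAA, the core letters of an NFAT site, for TGANTCA, an AP-1 site, for GAGGAA, a PU.1 core, and for TCANNTGA, a site of the MITF family. GGAAA and GAGGAA can overlap. The most downstream of 3 windows of Acp5 and the windows of Ctsk and Oscar are shown because they hold more than 1 kind of these motifs. Whether the motifs bear on the RNA levels was not tested. The capitals mark the matches.
Acp5, minus strand, chr9:22130549-22130848: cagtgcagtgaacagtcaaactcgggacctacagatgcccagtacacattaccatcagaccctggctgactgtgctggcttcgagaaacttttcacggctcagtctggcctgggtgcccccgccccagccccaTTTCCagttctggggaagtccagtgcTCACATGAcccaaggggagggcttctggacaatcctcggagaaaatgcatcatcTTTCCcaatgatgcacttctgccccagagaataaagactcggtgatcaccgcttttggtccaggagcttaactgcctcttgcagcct
Ctsk, plus strand, chr3:95498960-95499259: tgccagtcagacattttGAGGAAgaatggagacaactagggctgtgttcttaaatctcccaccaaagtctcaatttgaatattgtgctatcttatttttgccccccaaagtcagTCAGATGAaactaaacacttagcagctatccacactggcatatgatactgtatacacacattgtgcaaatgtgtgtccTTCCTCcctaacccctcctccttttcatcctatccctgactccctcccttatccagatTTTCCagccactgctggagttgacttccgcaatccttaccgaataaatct
Oscar, minus strand, chr7:3616108-3616407: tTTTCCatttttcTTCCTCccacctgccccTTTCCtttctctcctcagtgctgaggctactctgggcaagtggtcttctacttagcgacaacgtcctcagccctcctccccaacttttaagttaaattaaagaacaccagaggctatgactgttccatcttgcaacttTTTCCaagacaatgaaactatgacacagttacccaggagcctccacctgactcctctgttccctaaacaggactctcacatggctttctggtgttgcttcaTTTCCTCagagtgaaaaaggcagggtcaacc

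GGAAA was found in 7 of the 8 windows and in at least 1 window of each of the 5 genes, but 61.3% of all 32851 windows of that length hold it. The MITF family letters stood in 2 of the 8 windows, those printed for Acp5 and Ctsk, against 8.39% of all windows. GAGGAA was found in 2 windows, those of Ctsk and Oscar, where 28.3% of all windows have it. TGANTCA was in none of the 8, and 7.81% of all windows contain it. These are matches of letters in short windows and do not say which factor binds there.

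The labels and the tissue were checked on genes outside the 10. Mkx differed by -2.10 at 10 weeks and by -1.65 at 4 weeks, Mkx-KO minus WT. Signal remained on the Mkx-KO arrays, where its processed signal was 108 at 10 weeks and 193 at 4 weeks, against 553 and 563 in WT. All 12 ligament fibroblast genes were well above background on all 4 arrays, and Postn, the periostin gene of the ligament, had levels of 8.45 (WT) and 8.50 (Mkx-KO) at 10 weeks, then 8.57 and 8.62 at 4 weeks. Also well above background on all 4 arrays were all 10 epithelial, 9 skeletal muscle, 9 erythroid and 15 macrophage genes, 15 of 16 neutrophil genes, 8 of 9 B cell genes and 5 of 9 genes of the nasal lining. The nasal markers Omp and Gng13 stood apart in Mkx-KO at 4 weeks, at -3.26 and -3.27, where the lowest level of either on the other 3 arrays was 2.82.

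Over the 4 arrays the RNA of the 10 genes was lowest in WT at 10 weeks and higher on the other arrays, by least in Nfatc1. All 10 had their lowest level in WT at 10 weeks, where 34.2% of the 15504 genes well above background on all arrays did. In 9 of the 10 the array of Mkx-KO at 10 weeks was the second lowest, below both arrays of 4 weeks, an order found in 27.0% of those genes. The exception was Calcr, which was highest in Mkx-KO at 10 weeks. Nfatc1 kept the order but spanned 0.5 log2 units, and its genotypes differed alike at both ages, by 0.14 at 10 weeks and 0.16 at 4 weeks. Averaged over the 10 genes, after each gene's own mean was subtracted, the 10-week level was -0.88 (WT) and 0.04 (Mkx-KO), and 0.42 in each genotype at 4 weeks.

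**Figure D1:**
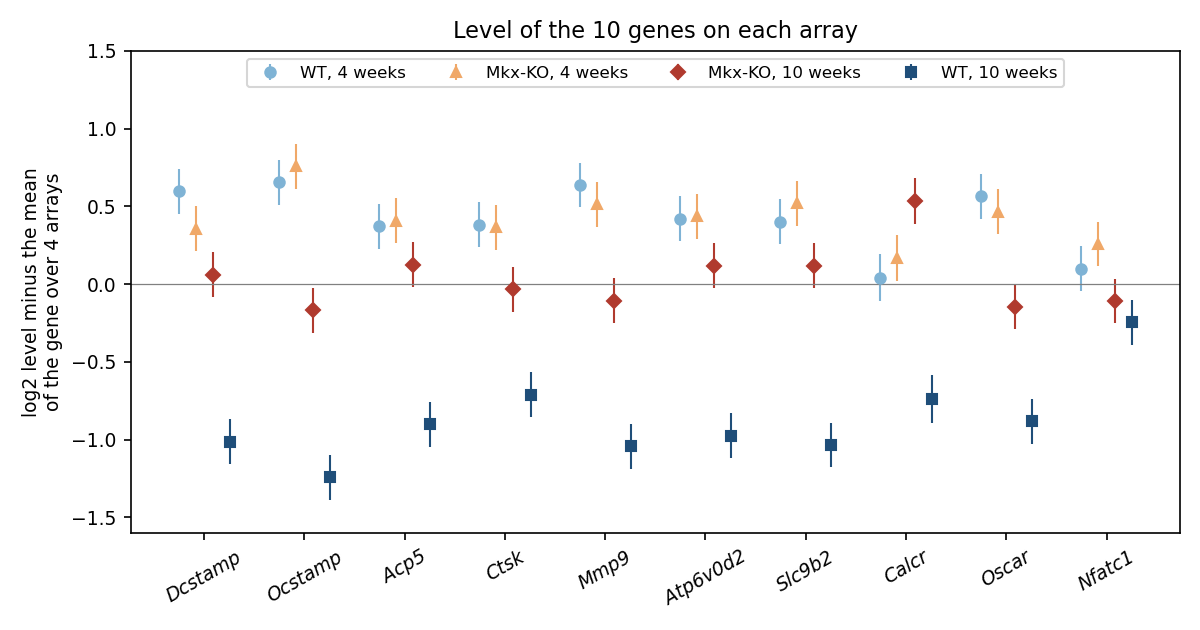
Log2 level of each of the 10 genes on each array, minus the mean of that gene over the 4 arrays; points are single arrays and bars are the technical error of the scanner software. WT at 10 weeks (squares) is lowest for every gene, and Calcr is the gene with Mkx-KO at 10 weeks (diamonds) on top.

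The fusion genes encode membrane proteins that precursors need to become multinucleate. Dcstamp, the gene of dendritic cell-specific transmembrane protein, read 0.59 in 10-week WT and 1.67 in 10-week Mkx-KO, and 2.20 and 1.96 in the same genotypes at 4 weeks. The 10-week WT array was the low one. Ocstamp, the gene of osteoclast stimulatory transmembrane protein, was at -0.54 and 0.54 at 10 weeks and at 1.36 and 1.46 at 4 weeks, in the same order of genotypes. It spanned 2.0 log2 units over the arrays, the widest range of the 10 genes.

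Among the resorption genes, Acp5 encodes tartrate-resistant acid phosphatase, the enzyme stained to see osteoclasts in sections. Its processed signal was 88851 in WT and 151926 in the knockout at 10 weeks, then 185278 and 204556 at 4 weeks. After scaling, these signals gave levels of 8.17, 9.19, 9.44 and 9.48. Ctsk encodes cathepsin K, the protease that digests type I collagen in the acid pit under the cell and that fibroblasts also make. Its level was 7.27 in 10-week WT and 7.94 in 10-week Mkx-KO, and 8.36 and 8.34 at 4 weeks. Mmp9, the gelatinase gene that neutrophils express too, was at 2.70 and 3.64 at 10 weeks and at 4.38 and 4.26 at 4 weeks. In each of these genes the arrays of 4 weeks were nearly equal and the WT array of 10 weeks was low.

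Acid secretion needs a proton pump, and Atp6v0d2 encodes a subunit of it that osteoclasts use in place of the widely expressed form. Atp6v0d2 was at 1.11 in 10-week WT and at 2.20 in 10-week Mkx-KO, and at 2.50 and 2.52 at 4 weeks. Slc9b2, the gene of a sodium and proton exchanger of osteoclasts, was at 2.20 and 3.35 at 10 weeks and at 3.64 and 3.76 at 4 weeks. Both followed the order of Acp5.

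The receptor genes differed from each other. Calcr, the gene of the calcitonin receptor, through which the hormone calcitonin halts resorption, was at -2.13 in 10-week WT and at -0.85 in 10-week Mkx-KO, and at -1.35 and -1.22 at 4 weeks. It was dim, with 10-week processed signals of 70.6 (WT) and 143 (Mkx-KO), and its second probe was not above background on any array. Oscar encodes a collagen-binding receptor that adds a costimulatory signal, and it was at -0.58 and 0.16 at 10 weeks and at 0.87 and 0.77 at 4 weeks. Nfatc1, the regulator, ranged least, from 1.82 (WT) and 1.96 (Mkx-KO) at 10 weeks to 2.16 and 2.32 at 4 weeks.

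The comparison of genotypes at 10 weeks asked how the knockout tissue of adult mice differs. The difference, Mkx-KO minus WT, was positive in all 10 genes and in 51.5% of all 16457 measured genes. The median difference was 1.05 over the 10 genes and 0.01 over all measured genes. At least 2-fold higher were 6 of the 10: Calcr (1.27), Slc9b2 (1.15), Atp6v0d2 (1.09), Dcstamp and Ocstamp (1.07 each) and Acp5 (1.03). Of all measured genes 1.04% were at least 2-fold higher, 1.37% (none of the 10) were at least 2-fold lower, and 2.41% were so in either direction. Mmp9 at 0.94, Oscar at 0.74 and Ctsk at 0.68 lay below 2-fold, and Nfatc1 differed by 0.14, within its technical error of 0.20. Outside Nfatc1 every difference exceeded 2 technical errors, which 14.0% of all genes did in either direction. With normexp background correction 3 of the 10 kept a difference of at least 2-fold, and the median was 0.84.

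At 4 weeks the same genes hardly differed between the genotypes. Their differences ran from -0.24 for Dcstamp to 0.16 for Nfatc1, with a median of 0.03. Of the 10 genes 6 were positive and 4 negative, where 58.8% of all measured genes were positive. None reached 2-fold, against 0.472% of 15686 genes at least 2-fold higher and 3.31% at least 2-fold lower, 3.78% in all. None of the 10 exceeded 2 technical errors, which 15.6% of all genes did, so at this precision no genotype difference could be told in these 10 genes at 4 weeks.

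The genotype difference at 10 weeks exceeded that at 4 weeks in 9 of the 10 genes, a count for which no share over all genes was computed. It was larger by 1.31 for Dcstamp, 1.15 for Calcr, 1.07 for Atp6v0d2, 1.06 for Mmp9 and 1.03 for Slc9b2. A gap of at least 1 log2 unit in that direction was thus seen in 5 of the 10, where 5.05% of 15504 genes had it, but after normexp correction it was seen in 1. Acp5 (0.99), Ocstamp (0.97), Oscar (0.84) and Ctsk (0.69) came next, and Nfatc1 had a gap of -0.02. With 1 array in each group this change of the genotype difference with age could not be tested.

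**Figure D2:**
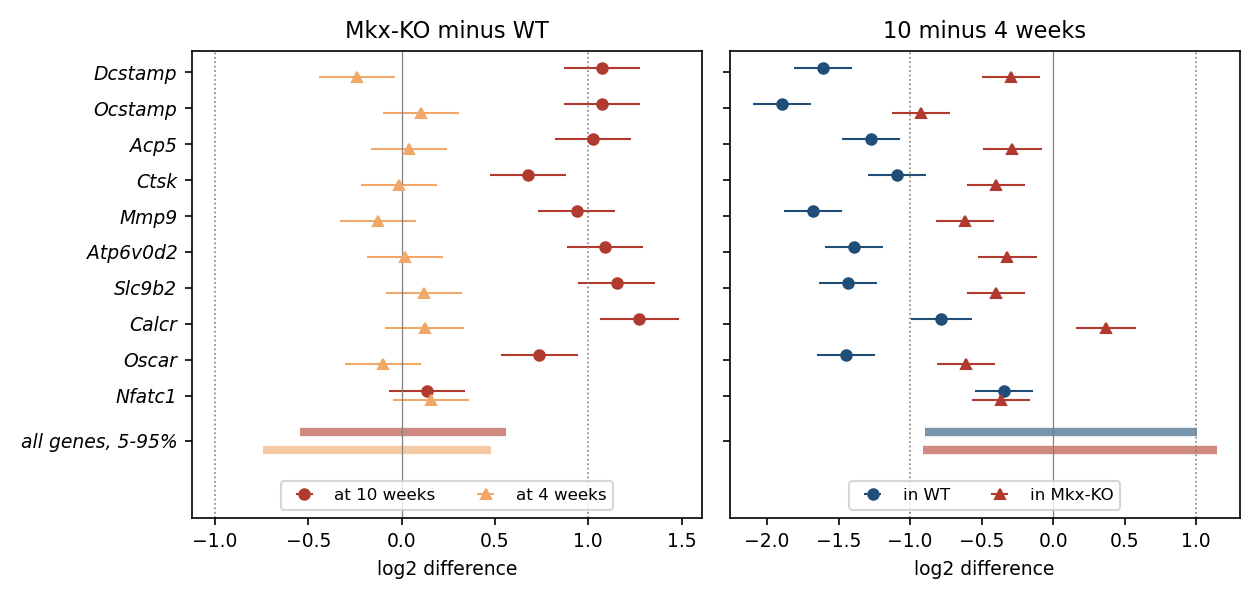
Log2 difference of each gene between genotypes (left) and between ages (right), with the technical error of the difference as bars; thick lines at the bottom span the 5th to 95th percentile of all measured genes and dotted lines mark 2-fold. At 10 weeks 6 of the 10 genes lie beyond 1 in Mkx-KO minus WT, and 8 of the 10 lie beyond -1 in 10 minus 4 weeks in WT.

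The comparison of ages in WT asked what differs between the growing and the adult ligament. The 10 genes were all lower at 10 weeks, with a median difference of -1.41 against -0.10 over 16102 measured genes, of which 40.5% were higher. At least 2-fold lower were 8 of the 10, where 3.83% of all genes were lower, 5.01% higher and 8.84% either: Ocstamp by -1.90, Mmp9 by -1.68, Dcstamp by -1.61, Oscar by -1.45, Slc9b2 by -1.44, Atp6v0d2 by -1.39, Acp5 by -1.27 and Ctsk by -1.09. In these terms WT tissue of 10 weeks had 26.9% of the Ocstamp level of 4 weeks and 41.4% of its Acp5 level. Calcr at -0.78 and Nfatc1 at -0.34 stayed under 2-fold. The array of WT at 10 weeks serves in this comparison and in that of genotypes at 10 weeks, so these 2 comparisons are not independent.

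In Mkx-KO the age differences were smaller and none of the 10 genes reached 2-fold, where 3.84% of 15669 genes were at least 2-fold lower and 6.25% higher, 10.1% in all. Ocstamp differed most, by -0.92, followed by Mmp9 at -0.62 and Oscar at -0.61, and the median was -0.38 against -0.15 over all genes. Only these 3 exceeded 2 technical errors, where 41.2% of all genes did. Calcr went the other way, at 0.37. A level at least 2-fold lower at 10 weeks in WT together with less than 2-fold in Mkx-KO was found in 8 of the 10 genes and in 2.29% of 15504 genes.

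The 4 arrays were also fitted together with limma, with genotype and age as additive terms, which leaves 1 residual degree of freedom. Across 16795 genes no gene passed an adjusted p of 0.05 in limma for either term, while 455 had an unadjusted p under 0.05 for genotype and 4074 for age. For genotype the limma adjusted p was 1 for all 10 genes, with effects from 0.15 for Nfatc1 to 0.70 for Calcr. For age the lowest limma adjusted p was 0.179, for Ocstamp, whose effect was -1.41 with a standard error of 0.32. Of the 10 genes 3 (Ocstamp, Oscar and Mmp9) had an unadjusted limma p under 0.05 for age, beside the 4074 of 16795 genes. Such a p-value was thus common on these arrays and does not set the 3 genes apart. The fit takes the change of the genotype difference with age as its residual, and on simulated arrays it recovered 0 of 50 genes changed by 2 log2 units and 36 of 50 changed by 4.

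Second probes gave a check within each array. They existed for 7 of the 10 genes, and for 6 of these they were well above background on all arrays. In Mkx-KO minus WT at 10 weeks they gave 1.16 for Atp6v0d2, 1.13 for Slc9b2, 1.03 for Dcstamp, 0.98 for Oscar, 0.92 for Mmp9 and 0.49 for Nfatc1. In 10 minus 4 weeks in WT the second probes of Dcstamp, Oscar, Mmp9, Atp6v0d2 and Slc9b2 ranged from -1.77 to -1.58. For Nfatc1 the 2 probes match different RefSeq transcripts, and the probe not chosen had the wider difference in each comparison. The spots around the 10 probes, 139 to 173 neighbours each, deviated by -0.12 to 0.14 log2 units from the other arrays in the median, less than the 2-fold differences named above.

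Of 18 other genes of the resorption machinery, 16 were positive and 2 negative in Mkx-KO minus WT at 10 weeks, with a median of 0.34, and 1 was at least 2-fold higher. That was Rufy4, a vesicle transport gene of osteoclasts, at 1.06. Car2, the carbonic anhydrase gene that supplies protons and that red cell precursors also express, differed by 0.92. Atp6v0c, a pump subunit found in all cells, differed by 0.48 and Mmp14, a membrane-bound collagenase, by 0.09. Tcirg1, the pump subunit typical of osteoclasts, is named after its values were seen and differed by 0.55. In 10 minus 4 weeks in WT 17 of the 18 were negative, with a median of -0.55, and Rufy4 (-1.66) and Atp6v0c (-1.18) were at least 2-fold lower. At 4 weeks the genotypes gave 9 positive and 9 negative differences.

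Receptors and signalling genes upstream were mixed. Of 26 such genes 19 were positive and 7 negative in Mkx-KO minus WT at 10 weeks, with a median of 0.17. Spi1, which encodes PU.1, differed by 1.22 and was the 1 gene at least 2-fold higher. Siglec15, a receptor that works through a DAP12 adaptor, differed by 0.73, Tnfrsf11a, the gene of the RANKL receptor RANK, by 0.59 and Csf1r, the CSF1 receptor gene, by 0.45. Camk4, a kinase gene, differed by -0.79. Spi1 (-1.61) and Siglec15 (-1.12) were also at least 2-fold lower at 10 than 4 weeks in WT, while Csf1r differed by -0.87 and Tnfrsf11a by -0.73. The probes of Spi1 and Siglec15 were dim. At 10 weeks Spi1 was at -3.89 (WT) and -2.66 (Mkx-KO) and Siglec15 at -2.98 and -2.25, each below Calcr on the same array. The technical error of Spi1 was 0.28 in both comparisons.

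The cytokines that start osteoclast formation differed from each other in direction. Tnfsf11, the RANKL gene, had levels of -1.0 (WT) and -0.33 (Mkx-KO) at 10 weeks, then -0.61 and -0.10 at 4 weeks, so Mkx-KO was higher by 0.67 and 0.50. Tnfrsf11b, the gene of the decoy receptor osteoprotegerin, differed by -0.29 and -0.37. Csf1 differed by -0.08 and 0.24, and Il34, the gene of the other CSF1 receptor ligand, by -0.57 and -0.96. Il34 was at least 2-fold higher at 10 than 4 weeks, by 1.33 in WT and 1.72 in Mkx-KO, and Pthlh, which encodes the eruption signal PTHrP, differed by -0.36 and -0.86. Tnfsf11 differed by -0.40 with age in WT and Tnfrsf11b by 0.52.

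Genes that restrain osteoclast formation had a median of 0.08 at 10 weeks in Mkx-KO minus WT, with none of 11 at least 2-fold apart. Rcan1, a calcineurin inhibitor that is itself a target of NFAT, differed by 0.46, Irf8, a repressor of NFATc1, by 0.11 and Bcl6, another repressor, by -0.13. In WT with age Rcan1 differed by -0.65, Bcl6 by 0.51 and Irf8 by 0.18.

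A list of paralogues had a median of -0.01 in Mkx-KO minus WT at 10 weeks. It holds close relatives of the 10 genes, except that Atp6v0a1 and Atp6v0a2 are relatives of Tcirg1, which is not among the 10. Of 14 such paralogues 13 were well above background on all arrays, and none was at least 2-fold apart between genotypes or with age in WT. At 10 weeks Mkx-KO minus WT gave 0.15 for Atp6v0d1, the widely expressed form of the pump subunit, against 1.09 for Atp6v0d2. The other cathepsin genes Ctsb, Ctsl and Ctss gave 0.08, -0.01 and -0.06, and the pump subunit genes Atp6v0a1 and Atp6v0a2 gave -0.05 and 0.03. The collagenase and gelatinase genes Mmp13 and Mmp2 gave 0.18 and -0.14, and Calcrl, the calcitonin receptor-like gene of vessels, gave -0.00. Among the NFAT genes Nfatc2, Nfatc3, Nfatc4 and Nfat5 gave -0.26, 0.02, -0.11 and -0.37. With age in WT Atp6v0d1 differed by -0.76, the largest of the 13 in size, and in Mkx-KO Nfatc2 differed by -1.34. Slc9b1 was not well above background on any array.

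**Figure D3:**
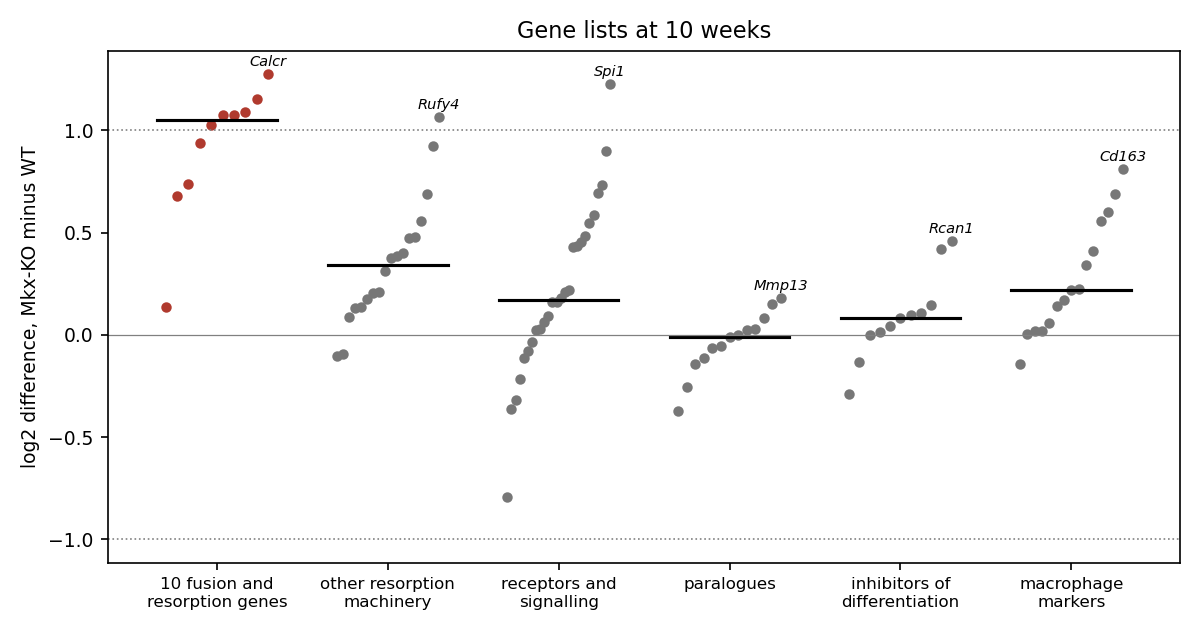
Log2 difference of Mkx-KO minus WT at 10 weeks for every measured gene of 6 lists, sorted within each list, with the list median as a bar and dotted lines at 2-fold. The 10 fusion and resorption genes have a median of 1.05, the other machinery 0.34, receptors and signalling 0.17, paralogues -0.01, inhibitors 0.08 and macrophage markers 0.22.

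The genes outside the 10 whose centred profile over the 4 arrays lay nearest to the mean of the 10, by Euclidean distance among 15494 genes, were led by Slc37a2, a sugar phosphate transporter gene, at a distance of 0.08 and a Pearson r of 0.999. It differed by 0.94 between genotypes at 10 weeks, by -0.06 at 4 weeks and by -1.40 with age in WT. Galnt6, a glycosyltransferase gene, came next at a distance of 0.12, followed by Ccdc3, Gm14207, Gm19531, Bdh2, Siglec15, Gpr37l1, Rec114 and Olfr1349, at distances of 0.15 to 0.22. Over 4 arrays a high r is easily reached, and these values describe likeness on these arrays. Gm14207, Gm19531, Siglec15, Gpr37l1 and Olfr1349 were dim, with no level above -1.29 on any array. Of the 10 genes Acp5 lay closest to their mean, at 0.10, and Calcr (0.69) and Nfatc1 (0.74) farthest.

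Markers of other cells differed between the same arrays, and their part in the results above was not tested. In Mkx-KO minus WT at 10 weeks all 15 measured neutrophil genes were positive with a median of 0.74, all 8 measured B cell genes with a median of 1.09 and all 9 erythroid genes with a median of 0.65. Of 15 macrophage genes 14 were positive, with a median of 0.22 and none at least 2-fold higher; Cd163 differed by 0.81, Lyz2 by 0.69 and Cd68, a lysosomal protein gene that osteoclasts share, by 0.60. Of 10 epithelial genes 9 were negative, with a median of -0.80. The summed signal of the epithelial list, relative to the 75th percentile of each array, was 947 (WT) and 522 (Mkx-KO) at 10 weeks, then 378 and 650 at 4 weeks, so it was highest on the array where the 10 osteoclast genes were lowest. Lowest on that array, as the 10 genes were, were also the B cell sum (4.65 and 10.8 at 10 weeks, 9.52 and 14.1 at 4 weeks, WT first), the erythroid sum (58.8, 72.5, 138 and 78.2 in the same order), the bone-forming sum (909, 1090, 1580 and 1250) and, by less, the macrophage (88.7, 104, 90.9 and 90.0) and ligament fibroblast sums (2970, 3160, 3100 and 3050). In each of these sums the brightest probes weigh most. Of the 9 erythroid genes 6 were higher at 10 than at 4 weeks in WT, with a median of 0.16. The bright gene Alas2 differed by -2.62 there, so the erythroid sum does not describe most genes of its list. The same kind of sum over the 10 osteoclast genes was 461, 869, 1080 and 1090.

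Neutrophils also express Mmp9, and the part of their RNA in its differences was not tested. At 10 weeks Mmp9 differed by 0.94 in Mkx-KO minus WT, in the same direction as all 15 measured neutrophil genes. The summed signal of these genes was 1020 (WT) and 1350 (Mkx-KO) at 10 weeks, then 807 and 451 at 4 weeks. At 4 weeks all 15 were negative in Mkx-KO minus WT with a median of -1.13, such as Camp at -1.63 and Ctsg at -1.47, and 9 were at least 2-fold lower, while Mmp9 differed by -0.12. With age in WT 12 of the 15 were positive and none at least 2-fold lower, while Mmp9 differed by -1.68.

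Bone-forming genes, whose cells share the socket wall with osteoclasts, were divided. Of 13 osteoblast and osteocyte genes 10 were positive in Mkx-KO minus WT at 10 weeks with a median of 0.16, led by Ibsp, the bone sialoprotein gene, at 1.58 and the osteocyte gene Mepe at 0.95. With age in WT 10 of the 13 were negative with a median of -0.27; Ibsp differed by -2.26 and Phex by -1.35, and Ifitm5 by -0.90. At 4 weeks 5 of 12 measured bone-forming genes were positive and 7 negative in Mkx-KO minus WT, with a median of -0.20. Their differences ran from -1.5 for Mepe to 0.50 for Ifitm5. Mepe and Ibsp (-1.13) were the 2 at least 2-fold lower, and none of the 10 osteoclast genes was 2-fold lower there.

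**Figure D4:**
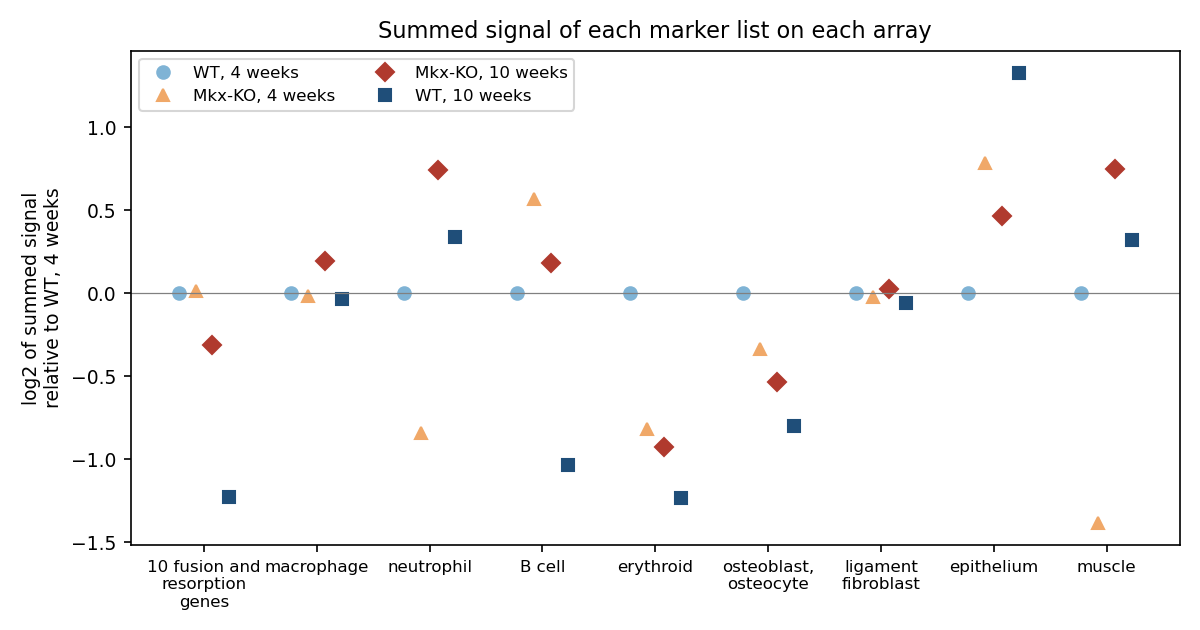
Summed signal of each marker list on each array, over genes well above background on all 4 arrays, as log2 relative to WT at 4 weeks; each point is 1 array. The 10 osteoclast genes are lowest in WT at 10 weeks (461 against 1080 in WT at 4 weeks), where the epithelial sum is highest (947), and the neutrophil sum is lowest in Mkx-KO at 4 weeks (451).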

How the data were processed

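The 4 PDL preparations each gave 1 one-colour Agilent array. Per the file headers, spot intensity was read with Agilent Feature Extraction 11.5.1.1, which subtracted background and detrended each array; the deposited series table holds the same intensity times 1 factor per array (1.54 to 2.08). The normexp alternative used the deposited median spot and local background intensity.

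Signals were log2 transformed, 60 to 77 outlier spots per array were left out, spots of a probe were averaged, and each array was centred on its 75th percentile over non-control probes. Probes were named by RefSeq accession: 32994 of 56605 (58.3%) matched a gene. Array annotation (mm9) and gene table (GRCm38.p6) differ in build, so probe positions are not given. Measured means well above background on both arrays compared, and called means 2-fold or more.

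Technical errors combine the scanner software's errors of both spots and do not cover variation between mice. They were 0.20 to 0.21 for each of the 10 genes in every comparison, and 0.20 in the median over all measured genes. A limit of 2 technical errors was thus nearly the same cutoff for each of the 10 genes. The number of arrays limits the precision. The additive fit used limma 3.58.1 (R 4.3.3), with Benjamini-Hochberg adjustment over genes that 2 or more arrays measured; on simulated data it recovered 45 of 50 genes changed by 8 log2 units, with 7 false calls. Python 3.11.15 with pandas 2.3.3 did the rest.

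The 10 genes, the gene lists and the tests were chosen with earlier results of these data known. Named beside the 10 are Mkx, RANK, the CSF1 receptor and 3 of their ligands or decoys, all measured paralogues, up to 4 genes of the osteoclast, cytokine, macrophage, neutrophil and bone lists with the largest mean difference, and the 10 nearest profiles; other genes were named to describe a list or after their values were seen. Skeletal muscle genes, checked as markers of another tissue, had medians of 0.45 and -1.27 between genotypes at 10 and 4 weeks. The alternatives were normexp correction (offset 50), quantile normalization, median centring, the deposited scaled table, averaging the probes of a gene, a filter on all 4 arrays, thresholds of 1.5 and 3-fold, a limit of 2 technical errors, and 5 other limma fits.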

Additional observations from a re-analysis of the deposited data

Results flagged for a closer look

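In 4 of the 10 genes the genotypes differed in opposite directions at the 2 ages, higher in Mkx-KO at 10 weeks and lower at 4 weeks. The share of all genes with such opposite directions was not computed. The difference at 10 weeks exceeded that at 4 weeks by 1.31 for Dcstamp, 1.06 for Mmp9, 0.84 for Oscar and 0.69 for Ctsk, but the values at 4 weeks lay between -0.24 and -0.02. Of these, only that of Dcstamp exceeded its technical error of 0.20. For Ctsk the value at 4 weeks was -0.02 and became 0.03 with normexp correction and 0.08 with quantile normalization. Dcstamp, Mmp9 and Oscar stayed negative at 4 weeks in all 5 recomputed forms of the values, of which the deposited scaled values could not change them. Calcr at 4 weeks was 0.12 and became -0.02 with normexp and -0.15 in the mean over probes, and Atp6v0d2 also turned negative there with quantile normalization and in the mean over probes, so which genes had opposite directions depended on the setting. Calcr was lower at 10 than 4 weeks in WT (-0.78) and higher in Mkx-KO (0.37), a gap of 1.15. With 1 array a group these differences between ages and genotypes were not tested.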

How the results depend on the processing

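All 10 genes stayed lowest in WT at 10 weeks, and positive in Mkx-KO minus WT at that age, under normexp correction, quantile normalization, centring on the median, the deposited scaled values and the mean over probes. Of 200 differences of the 10 genes recomputed so, 187 moved by less than their technical error, and no called difference changed sign. Part of this was fixed in advance. Centring removes the factor per array of the deposited scaled values, so these left the differences as they were. Centring on the median shifts all genes of a comparison by the same amount, and genes with 1 probe cannot move in the mean over probes. The filter on all 4 arrays and the limit of 2 technical errors could not change the 2-fold counts of the 10 genes. All 10 were well above background on all arrays, and their technical errors were at most 0.21. Between genotypes at 10 weeks 6 genes were 2-fold apart, but 3 with normexp correction and 0 at a 3-fold threshold, and the median went from 1.05 to 0.84 with normexp. With age in WT the count of 8 became 3 at 3-fold, and with age in Mkx-KO the count of 0 became 3 at 1.5-fold. Genes at least 2-fold apart over the whole array, 396 and 593 between genotypes at 10 and 4 weeks and 1423 and 1580 with age in WT and Mkx-KO, were 150, 259, 705 and 815 with normexp, 1468, 1546, 3753 and 4298 at 1.5-fold, and 86, 246, 491 and 569 at 3-fold. The second probe of Calcr, at background, brought its difference at 10 weeks from 1.27 to 0.76 in the mean over probes. Acp5 differed by 0.82 at 10 weeks and by -0.98 with age in WT after quantile normalization, and Ctsk with age in WT by -0.68. The limma fits called 0 of the 10 genes in each form tried, and with normexp they called 31 genes of the array for age, where the fit reported above called 0. No paired analysis was possible because each group has 1 array. No replicate could be left out for the same reason. Of the 10 genes, Calcr is limited most by dim probes. The causes of these shifts were not tested.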
